A study of Caenorhabditis elegans with 8 samples.

Results

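Wild-type small RNA landscapes were described from the 4 libraries of N2, the standard laboratory wild type of the nematode Caenorhabditis elegans, out of 8 libraries in the series. The members were chosen by strain label alone, and the 4 libraries of the other strain were not compared here. Each library came from whole animals grown at 20 °C on HT115 bacteria, a strain used to feed double-stranded RNA to worms. In 2 libraries the bacteria carried the empty vector L4440, and in the other 2 they made double-stranded RNA of oma-1, so the 2 groups differ by their food and share strain and temperature. The age label reads day 1 gravid adults, and the extraction text calls the animals young adults. The question addressed was which genes, gene-name families, chromosomes and exon lengths carried the most and the fewest small RNA reads.

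In C. elegans germ cells, RNA-dependent RNA polymerases copy messenger RNAs into short antisense RNAs that mostly begin with G and are known as 22G siRNAs. Argonaute proteins bind them: those bound by CSR-1 are known to match germline-expressed genes, and those bound by the WAGO proteins match silenced genes, pseudogenes and transposons. These siRNAs carry a 5′ triphosphate, and the cloning protocol named in the labels does not need a 5′ monophosphate, so such molecules can be cloned by it. The 5′ ends and first bases of the reads were not analysed here.

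The deposited counts covered 20191 genes. Library totals were 177175 and 187547 reads on L4440 and 277543 and 269876 reads on oma-1 RNAi, so a single read stood for 3.60 to 5.64 RPM (reads scaled to 1e6 per library). Levels below are RPM, reads divided by the library's total over all genes, and densities are RPM per kilobase of merged exons (RPKM). Values are means ± SD over the 4 libraries (n = 4) unless stated, and values in sequence follow the order L4440 replicate 1, L4440 replicate 2, oma-1 RNAi replicate 1, oma-1 RNAi replicate 2. Pairs of libraries had Pearson's r of 0.900 to 0.935 across 20191 genes on log2(RPM + 1), and 75 genes were in the top 100 of all 4 libraries. Genes are not independent replicates, and these coefficients are descriptive. The strand setting of the counting is not given in the sources used here, so antisense reads cannot be told from sense reads, and reads of overlapping or near-identical genes are uncertain between them.

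Lists of germ granule, meiotic and oocyte genes had a pooled density above that of all genes, while lists of sperm and somatic genes lay below it. Germ granule genes, which encode proteins of the perinuclear granules where small RNAs act, had a density of 127 ± 21.3 RPKM, against 34.5 RPKM over all genes together. Genes of meiotic chromosomes had 71.7 ± 9.2 RPKM. The sperm list had 15.7 ± 6.08 RPKM. Its median gene was not below that of all genes, at 2.12 against 1.33 RPKM, and 37.5% of its genes had no read, against 41.4%. Lists of genes used by somatic tissues lay lower, at 5.36 ± 1.20 RPKM for neurons, 0.845 ± 0.312 for hypodermis and cuticle, 0.342 ± 0.103 for muscle and 0.169 ± 0.0581 for intestine. Of the 3 defining markers per tissue, myo-3 and unc-15 of muscle, vit-2 and elt-2 of intestine, and rol-6 and dpy-7 of the cuticle had 0 reads in all 4 libraries. The remaining markers unc-54 of muscle and ges-1 of intestine had 1 pooled read each, and sqt-3 of the cuticle had 12. The neuronal markers snb-1, rab-3 and unc-13 had 42, 14 and 1. With 912141 reads pooled, a count of 0 allows up to 3.29 RPM, a limit that covers counting error only. In whole animals, fewer cells of a type and less small RNA per cell cannot be told apart.

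Reads were concentrated on a small set of genes. The 20 genes with the most reads in a library held 12.6%, 12.6%, 11.7% and 13.7% of its reads, and the first 500 held 48.3%, 52.2%, 48.4% and 52.6%. In replicate 2 of both foods, 436 and 428 genes were enough for 50% of reads, against 552 and 548 in replicate 1. These counts and the shares of the first 500 lay closer within a replicate number than within a food. The shares of the first 20 did not follow this order.

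**Figure D1:**
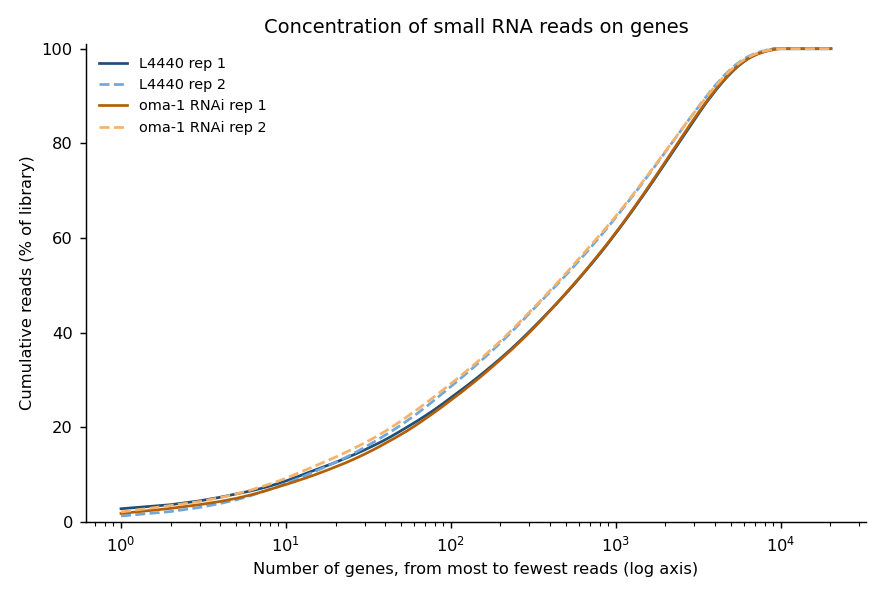
Cumulative share of reads (%) against the number of genes ranked from most to fewest reads (log axis), with 1 line per wild-type library. The lines of replicate 2 run above those of replicate 1 on both foods over the middle ranks, and reach 50% at 436 and 428 genes against 552 and 548.

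At the other end, most genes had few reads. A count of at least 10 reads in every library was reached by 3062 of 20191 genes (15.2%), and these held 85.1% of all reads. Their median level was 136 RPM and their median exon length 1832 bases. No read in any library was found at 8366 genes (41.4%), whose median exon length was 972 bases against 1103 over all genes. A further 3333 genes had 1 to 3 reads over all 4 libraries. The 4 libraries had reads at 9028, 8737, 9650 and 9326 genes, and at 9028, 8630, 8861 and 8651 genes after thinning to 177175 reads, so the oma-1 RNAi libraries no longer had the most.

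Single genes stood far above the rest, and most of the leading ones were alike in all libraries. Y71A12B.10 (chromosome I, 13957199 to 13960440, build WBcel235) had the highest mean, with 7631, 12855, 10701 and 13573 RPM, or 11190 ± 2668. It ranked 4, 1, 2 and 2 in the libraries. C44B11.6 (chromosome III, 3152722 to 3153471), a locus of the siRNA class that depends on the Argonaute ERGO-1, had 8540, 9528, 7894 and 8411 RPM. It ranked 2, 2, 3 and 3. Both L4440 values were above both oma-1 RNAi values, narrowly for L4440 replicate 1 and oma-1 RNAi replicate 2. The totals include oma-1, which took 21451 RPM in oma-1 RNAi replicate 2.

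Of the 3 highest means, 2 came from unequal libraries. oma-1 (chromosome IV, 8888976 to 8890999), the target of the fed RNA, had 164 and 187 RPM on L4440 and 18289 and 21451 RPM on oma-1 RNAi. It was the most counted gene in both oma-1 RNAi libraries and ranked 1269 and 999 on L4440. pals-26 (chromosome III, 4376503 to 4379200) belongs to the pals family, which is known for genes of the response to intracellular pathogens. It had 28249 RPM in L4440 replicate 1 and 2085, 3873 and 2790 RPM in the other libraries. It led that library and ranked 48, 13 and 29 elsewhere, so its mean rests on a single library.

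The remaining leading genes are of varied known function. got-1.2 (chromosome X, 16791347 to 16793137), an aspartate aminotransferase gene, had 4318, 8393, 6511 and 7959 RPM. sqst-1 (chromosome IV, 12034252 to 12037051) encodes the relative of the autophagy receptor p62 and had 5413, 7790, 6529 and 7252 RPM. Both were lowest in L4440 replicate 1 and highest in L4440 replicate 2, so the foods overlapped. bath-45 (chromosome II, 13123038 to 13124789), a gene with a BATH domain and known as a target of nuclear RNAi, followed the same order with 4865, 7753, 6237 and 7207 RPM. his-24 (chromosome X, 14490094 to 14491115), a linker histone gene, had 5503, 6009, 4533 and 6021 RPM. zip-2 (chromosome III, 833858 to 835808), which encodes a bZIP transcription factor of immune responses, had 4719, 5017, 3654 and 4854 RPM. For these last 2 genes the lowest library was oma-1 RNAi replicate 1.

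The pseudogene F37H8.2 (chromosome II, 11171446 to 11175479) had 5770 ± 485 RPM and was the only pseudogene among the 15 leading genes. The other leading genes are known by sequence names alone. C01F6.14 had 7613 ± 910 RPM, F15D4.5 7043 ± 983, W09C5.12 5770 ± 824, W03H9.2 5369 ± 552 and F55A3.6 4523 ± 784. Among the 100 genes with the highest means, 57 had a sequence name only, although such genes are 9974 of the 20191 and held 44.3 ± 1.98% of reads. None of the 20 leading genes and 12 of the leading 100 overlapped an exon of another counted gene, against 16.2% of all genes.

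**Figure D2:**
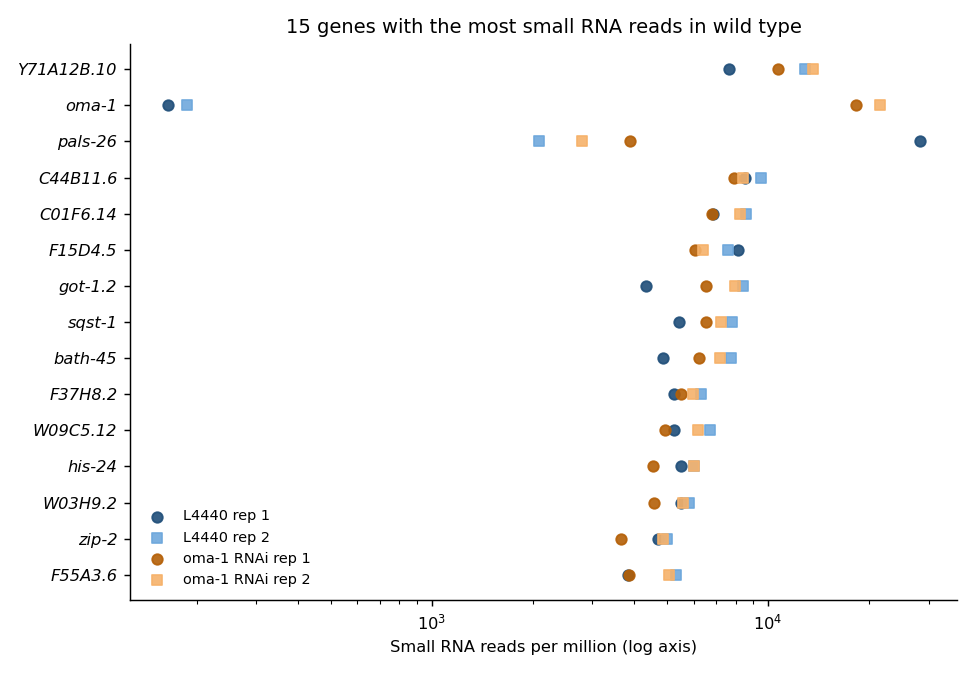
Level in each wild-type library (RPM, log axis) of the 15 genes with the highest mean. The points of 13 genes lie within 2-fold of each other, while oma-1 splits by food and pals-26 has 28249 RPM in L4440 replicate 1 against 2085 to 3873 in the others.

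Per kilobase, short genes led. The highest density was at C01F6.14 (chromosome IV, 9103876 to 9104191), a gene of 1 exon and 316 bases, with 24092 ± 2879 RPKM. C44B11.6, with 451 bases of exon, followed at 19054 ± 1514 RPKM, and F55A3.6 (chromosome I, 10784187 to 10784884), with 357 bases, at 12668 ± 2197 RPKM. Of the 15 genes with the highest density, 12 had at most 1000 bases of exon, and 9 were also among the 15 with the most reads. W09H1.3 (9917 ± 3033 RPKM), T26E3.7 (7532 ± 1685), F58D2.4 (6497 ± 478), K08F11.1 (6325 ± 1080), F37D6.3 (5712 ± 1247) and B0250.8 (5671 ± 1249) entered by density alone. Their exon lengths ran from 314 to 692 bases.

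The longest genes without a read showed the opposite. cpna-2, which encodes a copine-domain protein, has 23874 bases of exon and had 0 reads in all 4 libraries. him-4, the hemicentin gene of the extracellular matrix, has 15943 bases, and lrp-1, a lipoprotein receptor gene of the epidermis, has 14703. che-3, the dynein heavy chain of cilia, has 12516 bases, and epi-1, a laminin alpha chain gene, has 11241. At cpna-2 and him-4 another gene lies on the opposite strand.

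The spread between libraries was modest for most genes with reads. Among 2159 genes with a mean of at least 100 RPM, the median ratio of the highest to the lowest value was 1.6, and 1715 genes stayed within 2-fold. A ratio over 3 was found at 69 genes. The highest of their 4 values was in L4440 replicate 1 for 30 of these genes, in oma-1 RNAi replicate 2 for 21, in L4440 replicate 2 for 10 and in oma-1 RNAi replicate 1 for 8.

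Several of the widest spreads followed the replicate number. ssp-16, a gene of the sperm-specific protein family on chromosome I (6102032 to 6102463), had 97, 10, 38 and 6 reads. T22B3.3 on chromosome IV had 186, 12, 58 and 23 reads, and ZK688.10 on chromosome III had 160, 7, 49 and 16 reads. In all 3 genes L4440 replicate 1 was highest and oma-1 RNAi replicate 1 second. The list of 56 sperm genes held 0.132%, 0.0613%, 0.0778% and 0.0660% of reads, highest in L4440 replicate 1. This order was not shared by all of its genes. The ssp family held 0.0801%, 0.0107%, 0.0216% and 0.00593% of reads and the spe family 0.0615%, 0.0539%, 0.0551% and 0.0608%, while spe-12 had 9, 19, 20 and 40 reads. Its defining marker spe-9 had 0 reads in every library, and gsp-3 had 1, 0, 0 and 0. The part of sperm genes in the other values of L4440 replicate 1 was not tested.

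Between the foods, 2 of 4344 tested genes rose on oma-1 RNAi and 0 fell (0.046% called, edgeR's quasi-likelihood test, Benjamini-Hochberg adjusted p under 0.05). With the replicate number as a block, 6 rose and 25 fell. At an unadjusted p under 0.05 there were 132 genes, and DESeq2 also called 2. oma-1 rose from 175 ± 16.2 to 19870 ± 2236 RPM (SD, n = 2 each), which is 6.82 on the log2 scale in edgeR's fit (SE 0.52, adjusted p = 3.2e-14). moe-3 (chromosome II, 13160545 to 13165733), a zinc-finger gene related to oma-1, rose from 1 and 1 reads to 74 and 121 reads. Its ratio of read shares was 65, with an exact 95% counting interval of 17.7 to 540.2. Leaving out a library leaves 1 in its group, which is then assumed to vary like the 2 of the other food. Without oma-1 RNAi replicate 1, edgeR called 0 genes, with 36 at an unadjusted p under 0.05, and the log2 fold change of oma-1 was 7.01 (adjusted p = 0.311). Without L4440 replicate 2, 18 genes rose and 77 fell. Without L4440 replicate 1, 3 rose and 0 fell, and without oma-1 RNAi replicate 2, 3 rose and 1 fell. The values below are over all 4 libraries, with oma-1 named where it moves them.

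The chromosomes carried unequal shares. Chromosome I held 14.4% of genes and 22.3 ± 0.393% of reads, and chromosome III 13.3% of genes and 19.9 ± 1.42% of reads. Chromosome II held 17.4% of genes and 20.4 ± 0.493% of reads, and chromosome IV 16.3% of genes and 17.6 ± 0.911% of reads. On chromosome V and the X chromosome the reads fell short of the genes. Chromosome V held 24.7% of genes and 12.5 ± 0.208% of reads, and X held 13.8% of genes and 7.27 ± 0.908% of reads. X had the lowest share of the nuclear chromosomes in all 4 libraries, with 6.22%, 7.86%, 6.81% and 8.17%.

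Chromosomes III and IV had the widest spread among the autosomes. Chromosome III held 21.96% of reads in L4440 replicate 1 and 18.7% to 19.8% in the others, and without pals-26 its share was 19.2 ± 0.524%. Chromosome IV held 17.3%, 16.5%, 18.4% and 18.3%, and without oma-1 its share was 16.8 ± 0.351%. With 2 libraries against 2, the smallest p an exact two-sided permutation test between the foods can reach is 0.33, so no chromosome could pass 0.05. The mitochondrial chromosome had 6 reads over its 12 genes.

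The share of genes with reads differed in the same direction. At least 10 reads in every library were found at 24.3% of the genes of chromosome I and 23.9% of chromosome III. The figures were 16.5% on II, 16.3% on IV, 9.27% on V and 4.88% on X, against 15.2% of all genes. On V 57.9% of genes and on X 54.2% had no read, against 25.4% on I and 23.9% on III. Densities were 48.0 ± 0.846 RPKM on I, 47.3 ± 3.37 on III, 41.6 ± 1.0 on II, 38.3 ± 1.98 on IV, 19.7 ± 0.330 on V and 16.9 ± 2.12 on X. The values of I and III overlapped between libraries.

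On X a smaller share of genes than on the autosomes reached 10 reads at every exon length. Among genes of 2001 to 3000 bases, 6.76% of X genes and 37.3% of autosomal genes had at least 10 reads in every library. Among genes over 5000 bases the figures were 10.3% and 53.1%, and among genes of at most 500 bases 1.75% and 4.74%. The densities in the 2001 to 3000 class were 11.7 ± 1.1 RPKM on X and 34.9 ± 1.7 RPKM on the autosomes. In the class of 1001 to 1500 bases they were closer, at 20.7, 31, 26.1 and 32.3 RPKM on X. On the autosomes they were 29.8, 31.8, 30.1 and 31.2 RPKM, so X was higher in oma-1 RNAi replicate 2. This class on X held 2.03 ± 0.387% of reads and includes got-1.2, with 1430 bases and 6795 ± 1837 RPM. Its density without got-1.2 was not computed. X still had very strong single genes: got-1.2 and his-24 were among the leading 15, F41G4.7 had 1978 ± 448 RPM, and 11 of the leading 100 genes were X-linked.

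On chromosome V a large gene class without reads was counted separately. Families of chemoreceptor genes, whose products sense odours and tastes in neurons, hold 1312 genes by their name prefixes, 888 of them on V. They held 0.186 ± 0.0255% of reads, and 1118 of the 1312 (85.2%) had no read. Without them V still had 4106 genes, of which 51.7% had no read and 11.2% had at least 10 reads in every library, and its density was 22.8 ± 0.414 RPKM. The leading genes of V were B0250.8 (3925 ± 865 RPM), K02E2.6 (2984 ± 381 RPM), an ERGO-1 locus, and F16B4.6 (2248 ± 489 RPM).

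**Figure D3:**
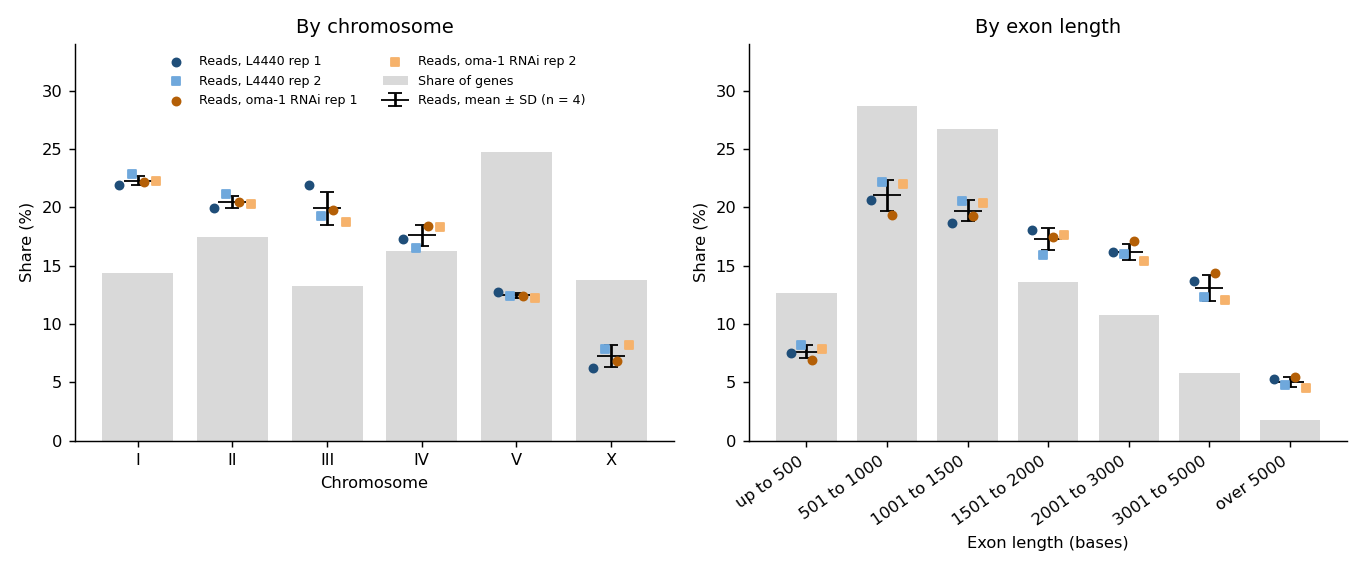
Share of reads (%) in each of the 4 wild-type libraries (points, with mean ± SD) beside the share of genes (grey bars), by chromosome and by exon length in bases. Reads exceed the share of genes on chromosomes I to IV and above 1500 bases of exon, and fall short of it on V and X and in the length classes below.

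Along the chromosomes the reads were uneven, and much of the unevenness sat in few windows. Of 404 windows of 250 kb, 87 held 50% of reads. The richest was on chromosome II (13000001 to 13250000), with 2.24 ± 0.227% of reads over 40 genes, led by F15D4.5, bath-45 and W09H1.3. The next was on chromosome I (13750001 to 14000000), with 2.17 ± 0.436%, of which Y71A12B.10 gave 51.5%. The windows of pals-26 (1.35 ± 1.28%) and oma-1 (1.26 ± 1.16%, or 0.253% without oma-1) followed, and their SDs are near their means. On X the richest window (16750001 to 17000000) held 1.06 ± 0.265%, of which got-1.2 gave 64.3%.

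The poorest windows lay on X and V. Among windows with at least 40 genes, the lowest was on X (6250001 to 6500000), with 0.00676% of reads and 41 of 54 genes without a read. Next came a window on V (7250001 to 7500000), with 0.00755% of reads and 72 of 87 genes without a read. Of the 10 lowest such windows, 7 were on X and 3 on V.

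The outer 25% at each chromosome end, called arms here, held 44.9% of genes and 48.9 ± 2.49% of reads. The left arms held 23.2% of genes and 21.3% of reads, and the right arms 21.7% and 27.6%. At least 10 reads in every library were found at 13.8% of arm genes and 16.3% of centre genes, and 42.9% and 40.2% had no read. On X the arms held more reads than genes by a wide margin. They held 47.4% of X genes and 70.3 ± 1.57% of X reads, and 64.2% without the 20 most counted genes. At least 10 reads in every library were found at 6.73% of genes in the X arms and 3.20% in its centre. The arms of II held 48.3% of its genes and 57.1% of its reads, or 51.6% without the 20 most counted genes. Its right arm held 19.7% of its genes and 36.5% of its reads, with 5 of the leading 20 genes. The left arm of II held 28.7% and 20.6%. Chromosomes III and V were near even, with 41% of genes and 41.5% of reads in the arms of III and 47.5% and 47.3% on V. On IV the arms held 40.7% of genes and 39.7%, 40.9%, 34.5% and 35.4% of reads. Without oma-1, which lies in the centre, these values were 39.7%, 40.9%, 38.4% and 40%.

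**Figure D4:**
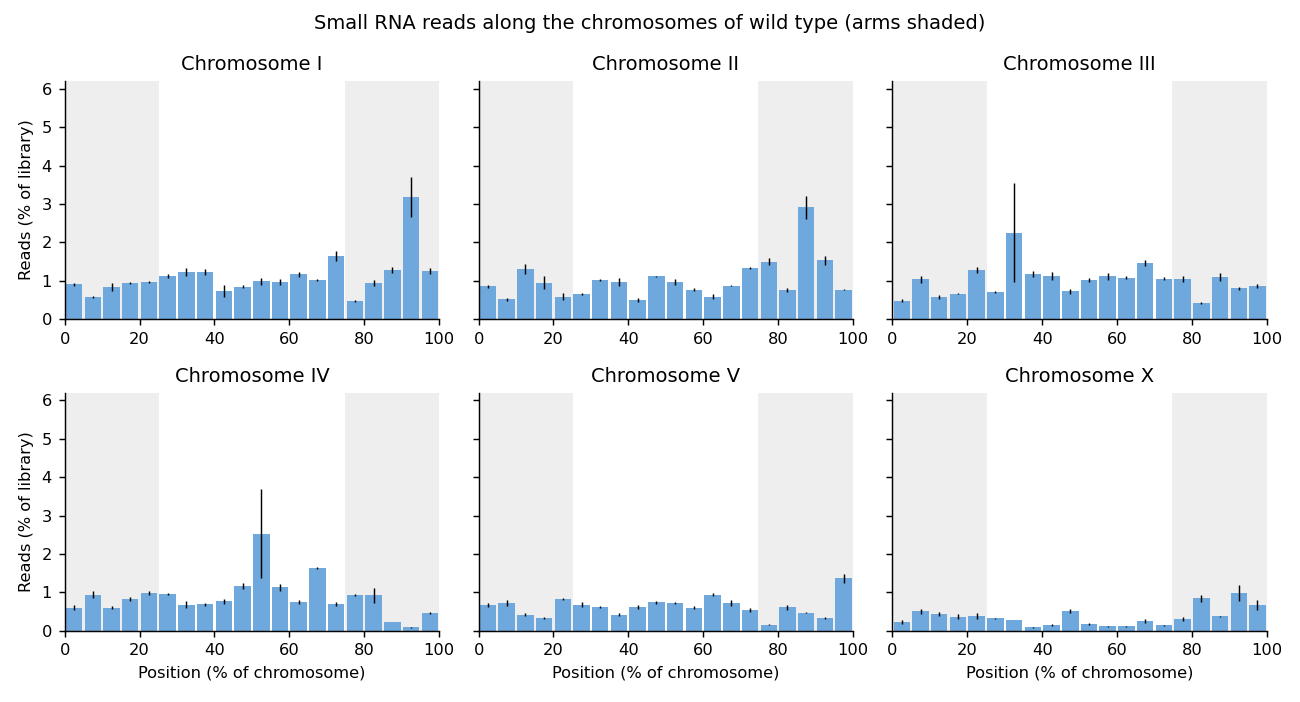
Share of library reads (%) in 20 equal bins along each chromosome, as mean ± SD of the 4 wild-type libraries, against position (% of chromosome length), with the arms shaded. Peaks stand near the right ends of I, II and X, while the tall bins of III and IV have wide error bars and hold pals-26 and oma-1.

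Reads per gene varied with exon length. Genes with over 2000 bases of exon were 18.4% of genes and held 34.3 ± 2.18% of reads, and genes with at most 1000 bases were 41.3% of genes and held 28.7 ± 1.88%. At least 10 reads in every library were found at 4.26% of genes of at most 500 bases, 11.2% of those of 1001 to 1500 bases, 32.1% of those of 2001 to 3000 bases and 45% of those over 5000. The share without a read fell from 65% to 11.9% between the shortest and the longest class. Across 20191 genes Spearman's rho with exon length was 0.345 for RPM and 0.227 for RPKM, given as a description of genes that share the same libraries. These values include the 8366 genes at 0. Among the 11825 genes with a read rho was 0.239 for RPM and -0.10 for RPKM, both on the means. In single libraries the RPKM value ran from -0.034 to -0.0019, and asking for a read ties density to length. Among the 3062 with at least 10 reads in every library, a filter that itself ties density to length, it was 0.061 and -0.66.

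Per kilobase the pooled densities ran the other way. The shortest class had 86.5 ± 6.40 RPKM and the longest 18.0 ± 1.55 RPKM. The median gene did not follow this order, at 0 RPKM in the shortest class, 11.5 in the class of 3001 to 5000 bases and 4.99 in the longest. The short class held 4 of the 20 leading genes, C01F6.14, C44B11.6 and F55A3.6 among them, and the classes above 3000 bases held 0. Genes with a single exon showed both extremes: 65.4% of 619 had no read, yet their pooled density was 78.1 ± 5.57 RPKM. C01F6.14 is among them, and their median exon length was 384 bases. Among genes of up to 500 bases, 71.7% of those with 1 exon and 63.6% of those with several had no read. Their densities were 98.5 ± 7.78 and 84.6 ± 6.40 RPKM. Genes with 20 or more exons had 18.3% without a read and a density of 12 ± 0.55 RPKM. The share of reads at genes of up to 1000 bases was 28.2%, 30.5%, 26.3% and 29.9%, higher in replicate 2 on both foods.

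By annotation, protein-coding genes were 97.9% of the counted genes and 98.3% of exon bases, and took 97.5 ± 0.142% of reads. The 155 pseudogenes held 1.96 ± 0.200%, at a density of 106 ± 10.9 RPKM, and F37H8.2 led them. Of the pseudogenes 22 had at least 10 reads in every library (14.2%, against 15.2% of all genes) and 76 had none. Genes that overlap an exon of another gene were 3267 and held 17.7 ± 0.404% of reads. Of these 21.4% had at least 10 reads in every library, and for them the assignment of reads is uncertain.

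Gene-name families, the letters before the hyphen, were compared where they had at least 10 genes. There were 161 such families with 5573 genes. In 50 of them no member had at least 10 reads in every library, and in 12 over 50% of members did. A single gene gave over 50% of the family's reads in 57 families. Paralogs in these families can share sequence, and how reads that map to several places were counted is not given in the sources used here.

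The family with the largest mean share was bath, 37 genes with BATH and often BTB domains, which in part serve as adaptors of ubiquitin ligases. It held 1.24%, 1.70%, 1.36% and 1.61% of reads. At least 10 reads in every library were found at 13 members (35.1%, against 15.2% of all genes), and 5 (13.5%, against 41.4%) had no read. The family ranked first in 3 libraries, and in L4440 replicate 1 pals held more, at 2.85%. bath-45 gave 44.1% of these reads, and without it the share was 0.830%. The nuclear hormone receptor family held 0.960 ± 0.0946% with all its genes and 0.731% without its own leading gene. bath-20 (chromosome II, 2040368 to 2041629) had 3577 ± 419 RPM, bath-23 909 ± 153 RPM and bath-13 628 ± 92.2 RPM, and all 4 lie on chromosome II, as do 26 of the 37. Replicate 2 was higher than replicate 1 on both foods.

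Families of F-box genes, many of them substrate adaptors of ubiquitin ligases, had several strongly counted members and many with few reads. The fbxb family of 106 genes held 0.690 ± 0.0674% of reads and the fbxa family of 176 genes 0.656 ± 0.0740%. fbxb-97 (chromosome II, 1846990 to 1848154) had 1662 ± 232 RPM, fbxb-14 1259 ± 189 RPM and fbxb-100 1146 ± 220 RPM. fbxa-120 on X led its family with 1147 ± 182 RPM. The densities were 64.8 ± 6.33 RPKM for fbxb and 33.7 ± 3.80 RPKM for fbxa, against 34.5 over all genes. No read was found at 24 of the fbxb (22.6%) and 76 of the fbxa genes (43.2%), against 41.4% of all genes. At least 10 reads in every library were found at 13 fbxb genes (12.3%) and 21 fbxa genes (11.9%), against 15.2% of all genes. Their median exon lengths were 1004.5 and 1061 bases. Among genes of 1001 to 1500 bases 44.1% had no read and 11.2% had at least 10 in every library, near the fbxa shares.

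The nuclear hormone receptor family, nhr, with 267 ligand-regulated transcription factor genes, had its reads mostly at few members. nhr-88 had 2306 ± 250.6 RPM, nhr-15 2109 ± 304 RPM, nhr-249 1109 ± 212 RPM and nhr-1 722 ± 170 RPM, and these 4 gave 65.1% of the family's reads. Of the 267 genes 136 (50.9%) had no read and 17 (6.37%) had at least 10 in every library, against 41.4% and 15.2% of all genes. A single gene also carried the histone family, where his-24 gave 79.7% of the reads of 72 genes, and zip, where zip-2 gave 87.9% of the reads of 12 genes. Replication-dependent histone genes are near-identical copies, so their counts are uncertain. In the pals family pals-26 gave 97.1% of reads, and pals-22 had 179 ± 55.7 RPM. No read was found at 28 of 38 pals genes (73.7%, against 41.4% of all genes).

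In 23 of the 161 families every member had a read in at least 1 library, among them npp, rpn, rbm and klp. Of 25 npp genes, which encode nuclear pore proteins, 23 had at least 10 reads in every library and 0 had none, and npp-10 led with 511 ± 123 RPM. Of 13 rpn genes, which encode parts of the proteasome's regulatory particle, 11 passed this count, led by rpn-2 with 551 ± 134 RPM. The same held for 11 of 13 rbm genes, which encode RNA-binding proteins. These shares stand against 15.2% of all genes.

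The kinesin family klp had 8 of 13 genes at that count and none without a read. klp-7, the microtubule-depolymerising kinesin of spindles, had 1936 ± 346 RPM, and klp-18, a kinesin of the meiotic spindle, 1461 ± 287 RPM. klp-19 had 809 ± 252 RPM, klp-15 743 ± 57.2 RPM and the cell cycle kinase gene cdk-1 940 ± 230 RPM. The family's share was 0.646%, 0.580%, 0.779% and 0.558%, higher in replicate 1 on both foods, opposite to the bath family. Of the ribosomal protein genes, 13 of 47 rpl (27.7%) and 6 of 31 rps (19.4%) had at least 10 reads in every library, against 15.2% of all genes, and 1 and 0 had no read. Their densities were 81.9 ± 3.72 and 77.7 ± 1.05 RPKM, and the rps share of reads was 0.146 ± 0.00196%.

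Families of chemoreceptors, C-type lectins and collagens were mostly without reads, while 41.4% of all genes had none. Of 220 srh genes 182 had no read, and 173 of 193 str genes and 99 of 109 srw genes had none. Among all chemoreceptor genes 4 had at least 10 reads in every library: srt-43 (613 ± 76.1 RPM), srd-70 (297 ± 66.5), sra-35 (213 ± 54.4) and srg-34 (66.0 ± 16.8). Of 240 C-type lectin genes (clec) 170 (70.8%) had no read, and of 157 collagen genes (col) 126 (80.3%) had none. Among the collagens col-111 (670 ± 103 RPM, with another gene on the opposite strand) and col-71 (553 ± 116 RPM) stood out. The families cnc, nspb and nspc had no read in any library. The major sperm protein family msp held 0.0192%, 0.00160%, 0.00685% and 0.00371% of reads, with L4440 replicate 1 highest. In msp 17 of 31 near-identical genes had no read, nearer to the 41.4% of all genes than the other families of this paragraph. Among genes of at most 500 bases 65% had no read.

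The genes of the small RNA pathways themselves carried reads, and they are given here by role. Among Argonautes, wago-4, needed for inherited silencing, had 276, 194, 414 and 268 reads, or 1269 ± 297 RPM. prg-1, the PIWI protein that binds piRNAs, had 1261 ± 241 RPM, with another gene on the opposite strand. hrde-1, the nuclear Argonaute of the germline, had 1247 ± 73.3 RPM, and csr-1 had 1112 ± 219 RPM. Per kilobase prg-1 was highest at 472 RPKM, followed by wago-4 at 377, hrde-1 at 353 and csr-1 at 311 RPKM. In the whole list 8 of 20 Argonaute genes (40%) had at least 10 reads in every library and 2 (10%) had no read. Over all genes the shares were 15.2% and 41.4%. The list's median exon length was 3238.5 bases, and among genes of 3001 to 5000 bases the shares were 42.2% and 13.1%.

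Germ granule and inheritance genes followed. glh-4, a Vasa-like helicase of P granules, had 1237 ± 279 RPM, the highest of its list after wago-4. Of 19 germ granule genes 11 (57.9%) had at least 10 reads in every library, against 15.2% of all genes and 32.1% of genes of 2001 to 3000 bases. The list's median exon length was 2493 bases. The list held 0.651%, 0.497%, 0.674% and 0.494% of reads, so replicate 1 was higher on both foods. Of 12 genes of nuclear RNAi and inheritance 10 (83.3%) reached that count. Among them nrde-2 had 878 ± 61.5 RPM, morc-1 635 ± 183 RPM and hrde-4 529 ± 98.2 RPM. Of 25 genes of siRNA amplification 20 (80%) reached it, with mut-14, a helicase of mutator foci, at 473 ± 115 RPM. The median exon lengths of the inheritance and amplification lists were 2779 and 2046 bases, inside that length class.

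In the list of double-stranded RNA uptake, the importer gene sid-1 had 118, 210, 244 and 316 reads, or 959 ± 233 RPM. Its density of 357 RPKM stood against 35.3 RPKM at rsd-6, the next in the list. Of the 7 genes of this list 2 (28.6%) had at least 10 reads in every library, against 15.2% of all genes and 32.1% of genes of 2001 to 3000 bases. The list's median exon length was 2557 bases.

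Target classes of the secondary siRNA pathways had the highest densities of all lists. The 7 loci listed as silenced by nuclear RNAi held 2.11 ± 0.220% of reads at 2143 ± 224 RPKM. All 7 had at least 10 reads in every library, against 15.2% of all genes. F15D4.5, bath-45 and B0250.8 led them, and T16G12.4 had 926 ± 167 RPM. The 12 ERGO-1 loci held 1.64 ± 0.180% at 1827 ± 200 RPKM, with C44B11.6, K02E2.6, E01G4.5 (2625 ± 544 RPM) and Y17D7B.4 (987 ± 94.2 RPM) in front. Both lists were highest in L4440 replicate 2. The lists were compiled with such loci in mind, so their place is a description.

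Oocyte and meiotic genes were lower but broadly covered. The 40 oogenesis and maternal genes held 0.551%, 0.450%, 2.34% and 2.53% of reads, and without oma-1 0.535%, 0.431%, 0.512% and 0.380%, which no longer split by food. Of these 39 genes 27 had at least 10 reads in every library, among them puf-11 (317 ± 76.3 RPM) and puf-5 (294 ± 58.1 RPM), which encode RNA-binding repressors of translation. Of 28 genes of meiotic chromosomes 19 (67.9%) did, led by htp-1, a protein of the chromosome axis, with 580 ± 71.6 RPM. The kinase gene chk-2 had 356 ± 52.5 RPM and the recombinase gene rad-51 207 ± 37.7 RPM. At least 10 reads in every library were found at 15.2% of all genes and 19.1% of genes of 1501 to 2000 bases. The median exon length was 1821.5 bases for the 40 oogenesis and maternal genes and 1709.5 for the meiotic list.

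In the somatic lists few genes had many reads. Of 23 neuronal genes 7 (30.4%) had no read, against 41.4% of all genes and 29.4% of genes of 1501 to 2000 bases. The list's median exon length was 1786 bases. At least 10 reads in every library were found at 1 neuronal gene (4.35%, against 15.2% of all genes). This was the neuropeptide gene nlp-12, with 13, 11, 12 and 24 reads. snb-1, the synaptobrevin gene, had 3, 8, 17 and 14 reads, and unc-13 had 1, 0, 0 and 0. Of 17 muscle genes 0 had at least 10 reads in every library and 9 (52.9%) had no read. The tropomyosin gene lev-11 led them with 2, 7, 10 and 7 reads. Of 17 intestinal genes 12 (70.6%) had no read, and of 22 genes of hypodermis and cuticle 16 (72.7%).

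**Figure D5:**
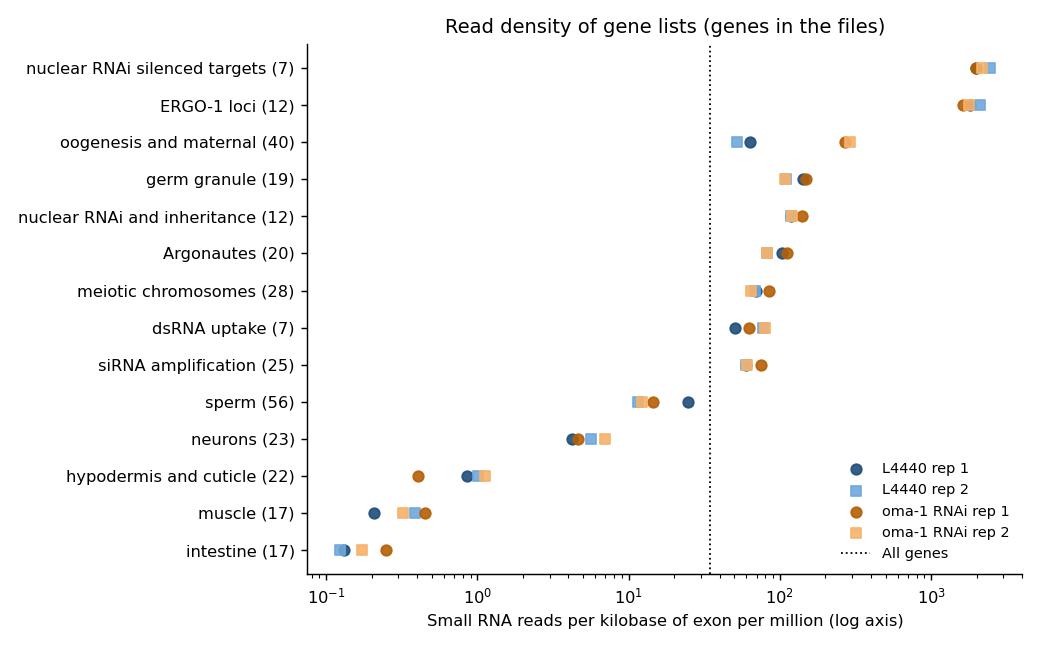
Density of each gene list (RPKM, log axis) in each wild-type library, with the number of genes in parentheses and a dotted line at 34.5 RPKM for all genes. Lists of siRNA target loci, germ granules and RNAi factors lie right of the line, the sperm and somatic lists left of it, and the oogenesis list, which holds oma-1, splits by food.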

How the data were processed

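Small RNAs of about 18 to 35 nt were cloned from 20 µg of total RNA, per the labels' protocols. The authors' deposited files hold raw whole-number counts of reads per gene, without normalisation, beside the merged exon length. Per the submitters' processing notes, cutadapt 1.14, TopHat2 2.1.1 and featureCounts 1.6.0 were used with build WBcel235. Strand setting, multi-mapping treatment and size filters were not given in the sources used here.

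RPM and RPKM were computed from simple library totals. Annotation came from the Ensembl table of the same build, matched by current symbol for 18960 genes and older name for 960; 271 had no match, and list members not found by name were not used here. Chromosome ends were taken as the end of the last annotated gene. The foods were compared over the 4 wild-type libraries with edgeR 4.0.16 in R 4.3.3 (filterByExpr, TMM, quasi-likelihood test), checked on simulated data; DESeq2 1.42.0 was an alternative. The SE divides the absolute log2 fold change by the root of F. Other values were computed in Python 3.11.15.

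The labels name no separate cultures for the libraries of a group, so the p-values reflect the spread between these libraries alone, and it may be technical. Intervals and floors of 3 counts cover counting error only, since reads carry no stated molecular identifiers. The libraries follow from the strain label, while the choice of this topic, of the genes described and of the lists was made with earlier results of these data known. The rule for named genes took the 15 highest by RPM and by RPKM, the top 3 per chromosome, up to 4 per family described and per list, the 5 longest without a read, called genes of the food contrast and oma-1. Genes named for a wide spread, and defining markers outside these ranks, were chosen after their values were seen. Alternatives covered overlapping genes, the leading genes, thinning, thresholds, arm width and leaving out each library.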

Additional observations from a re-analysis of the deposited data

Results flagged for a closer look

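Over the 4 wild-type libraries, 5 of the genes, families, lists and shares tested had a library whose gap to the nearest of the others exceeded Dixon's limit for 4 values, and 108 did not. Chance alone flags about 1 in 20 sets. The other libraries had 2085 to 3873 RPM at pals-26, while L4440 replicate 1 had 28249 RPM. The pals family followed it, with 2.85% of reads in that library and 0.238% to 0.409% in the others. The neuronal gene unc-119 had 5.33 RPM in L4440 replicate 2, which is 1 read, and 21.6 to 22.6 RPM in the others. The siRNA amplification list held 0.49% of reads in oma-1 RNAi replicate 1 and 0.387% to 0.396% in the others. In the same library the nuclear RNAi and inheritance list held 0.50% of reads, against 0.424% to 0.428%.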

How the results depend on the processing

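Leaving out each library in turn gave a share of the 20 most counted genes of 12.31% to 13%, 3085 to 3473 genes with at least 10 reads in every library, 8800 to 9039 genes without a read, an X share of 6.96% to 7.61%, an arm share of 47.9% to 49.6%, 33.4% to 35.0% of reads at genes over 2000 bases and a bath share of 1.40% to 1.56%. Between the foods it gave 0 to 95 calls, in fits with a single library in 1 group. The share of the 20 most counted genes was 15.4% without overlapping genes, whose reads then also leave the totals. At a threshold of 20 reads 1619 genes passed. Arms of the outer 20% held 39.4% of reads and 34.5% of genes, and of the outer 33% 66.7% of reads and 61.7% of genes. The bath share was 1.73% without overlapping genes and 0.830% without bath-45, an alternative added after seeing the data, as were those without pals-26 on chromosome III and without oma-1 in the arms of IV. With the replicate number as a block, 31 genes were called between the foods (6 higher and 25 lower). Deviations of same-numbered libraries had r = 0.369 over 4344 genes, but with 2 numbers the design does not show pairing. Of the other values, 112 kept within their spread or call, 26 moved and 1, oma-1 without oma-1 RNAi replicate 1, lost its call. Leaving out a library cannot move a mean share past its SD, so such shares kept by the rule alone and say nothing of robustness. Genes of 1 to 3 reads are limited by depth.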
